A study of Mus musculus with 30 samples.

Results

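Chromatin accessibility of mouse retinal ganglion cells (RGCs) 3 days after optic nerve crush was compared with that 1 day after it. The comparison used 6 of the 30 samples of the study, ATAC day 1 replicates 1 to 3 and ATAC day 3 replicates 1 to 3, which the submitters' covariate table places in batch 2, without saying what its batches are. They are among 15 ATAC libraries. The remaining ATAC libraries are 3 of day 0 in the same batch and 3 each of day 0 and day 3 in batch 1, which holds no day 1 library. All 6 came from RGCs of C57BL/6 mice with a crushed optic nerve, dissociated with papain and sorted by fluorescence, and differ in the labels only in the day after crush. Day 0 is uninjured. The sources used here name no sort marker, no sex or age of the mice and no pooling of animals, and nothing says that replicates are separate animals, so p-values measure the spread between these libraries, which may be technical. RNA-seq of sorted RGCs from the same study, 3 libraries on each of days 1 and 3, gave the expression of the genes nearest to the peaks.

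RGCs are the neurons that carry the output of the retina to the brain through the optic nerve. Crushing the nerve cuts their axons, and in adult mammals most of the injured cells later die and few regrow an axon. The injury signal travels back along the axon through the kinases DLK and JNK, which act on transcription factors of the AP-1 and ATF families. These factors and those of the integrated stress response bind at promoters and at distal enhancers, where bound, nucleosome-free DNA is open to the transposase used in ATAC-seq. Accessibility of a site is therefore read as the number of transposase fragments in a peak.

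Promoter windows in called peaks are shown first. The 250 bases before a RefSeq start site (RefSeq, GRCm38.p6) are printed 5′ to 3′ on the strand of the gene, for promoters whose peak was called between the days. Matches to a motif are in capitals, but a match that overlaps a marked one stays in lower case, as at Gbp3. For each motif they are the pair of list genes with the smallest p among promoter peaks called in a chosen direction that hold a match. Both strands were searched. The direction, rising or falling, was chosen per motif, so the direction of the printed peaks is no result. Not every chromosome was searched, and a gene already printed for a motif was passed over for the next. The motif of interferon regulatory factors (IRF, letters GAAA, any 2 bases, GAAA) is marked for Ifit3 (chr19:34583279-34583528, plus strand) and Gbp3 (chr3:142559794-142560043, plus strand), whose peaks rose.
Ifit3: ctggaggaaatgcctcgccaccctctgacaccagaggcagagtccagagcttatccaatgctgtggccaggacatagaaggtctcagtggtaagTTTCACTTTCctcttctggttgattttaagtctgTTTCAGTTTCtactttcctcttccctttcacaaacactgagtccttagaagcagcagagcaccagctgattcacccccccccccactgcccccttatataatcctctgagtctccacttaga
Gbp3: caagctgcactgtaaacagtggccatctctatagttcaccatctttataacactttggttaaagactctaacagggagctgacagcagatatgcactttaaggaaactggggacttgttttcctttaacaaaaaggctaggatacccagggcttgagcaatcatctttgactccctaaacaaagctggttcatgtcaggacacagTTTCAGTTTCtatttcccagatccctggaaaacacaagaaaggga

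The AP-1 motif (letters TGANTCA), bound by JUN and FOS dimers, is marked for Fas (chr19:34290409-34290658, plus strand), a death receptor, and Creb5 (chr6:53573124-53573373, plus strand), a CREB-family factor. Both peaks rose. The Creb5 peak (chr6:53570947-53584404) is far wider than the window. It rose by 0.63 ± 0.16 on the log2 scale (standard error, edgeR adjusted p = 0.0185). That value is for the whole peak, and the window alone was not tested.
Fas: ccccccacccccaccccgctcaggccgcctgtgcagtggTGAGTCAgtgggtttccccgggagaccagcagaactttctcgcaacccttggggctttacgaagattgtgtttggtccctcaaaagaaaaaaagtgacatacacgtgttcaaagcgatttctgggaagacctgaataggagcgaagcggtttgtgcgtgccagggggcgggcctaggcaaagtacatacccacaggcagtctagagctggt
Creb5: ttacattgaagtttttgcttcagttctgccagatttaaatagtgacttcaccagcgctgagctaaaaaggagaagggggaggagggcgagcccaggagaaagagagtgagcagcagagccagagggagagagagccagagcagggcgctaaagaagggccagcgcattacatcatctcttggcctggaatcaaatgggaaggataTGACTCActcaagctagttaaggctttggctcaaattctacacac

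The E-box of neural bHLH factors (letters CATCTG) is marked for Otx2 (chr14:48662735-48662984, minus strand), a homeobox factor of photoreceptor and bipolar cells, and Ntrk2 (chr13:58806319-58806568, plus strand), the receptor of BDNF. Both peaks fell. The Otx2 peak (chr14:48651286-48676045) changed by -0.52 ± 0.15 on the log2 scale (standard error, edgeR adjusted p = 0.0335). The Ntrk2 peak (chr13:58805500-58810678) changed by -0.53 ± 0.16 (edgeR adjusted p = 0.0428). Both are far wider than their windows, so other elements can share them, and the windows alone were not tested.
Otx2: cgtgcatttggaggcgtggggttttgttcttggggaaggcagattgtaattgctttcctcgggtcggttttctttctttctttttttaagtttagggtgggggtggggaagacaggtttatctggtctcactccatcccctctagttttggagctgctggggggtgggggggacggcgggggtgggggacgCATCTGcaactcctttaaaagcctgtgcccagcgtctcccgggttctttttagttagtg
Ntrk2: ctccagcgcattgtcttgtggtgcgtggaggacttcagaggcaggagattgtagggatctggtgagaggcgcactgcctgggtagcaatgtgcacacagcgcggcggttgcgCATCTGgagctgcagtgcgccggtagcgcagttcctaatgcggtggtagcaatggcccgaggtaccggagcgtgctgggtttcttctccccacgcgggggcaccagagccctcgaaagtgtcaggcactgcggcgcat

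The promoter of Jun (chr4:95052223-95052472, minus strand), the central injury factor of the AP-1 family, has a match to TGACNTCA 45 bases before its start. Its window lies in a peak that the submitters' table assigns to Gm12703, a neighbouring gene.
Jun: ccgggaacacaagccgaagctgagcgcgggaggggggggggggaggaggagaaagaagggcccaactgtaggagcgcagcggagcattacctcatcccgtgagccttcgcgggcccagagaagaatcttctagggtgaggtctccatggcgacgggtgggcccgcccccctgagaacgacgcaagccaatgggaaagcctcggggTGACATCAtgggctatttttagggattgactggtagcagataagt

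Of all 32851 RefSeq windows, each 250 bases before and 50 after a start, 3.44% held the IRF letters, 7.81% the AP-1 letters and 17.2% the E-box. Among the 1260 windows in a promoter peak that rose, the shares were 6.19%, 9.92% and 12.5%. In the 420 windows of peaks that fell they were 3.1%, 5.48% and 17.4%, and in 16256 windows of peaks not called they were 2.69%, 5.05% and 12.2%. The IRF and AP-1 letters thus stood in a larger share of the windows of rising peaks, and the E-box in a larger share of falling ones, than in peaks not called. A different order was seen for the ETS letters CCGGAAGT, in 1.35% of windows of rising and 6.96% of windows of uncalled peaks. These shares describe letters and were not tested.

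The 6 libraries held 20006724 to 38742127 counts in the 151630 consensus peaks. The share of reads in peaks was 0.157, 0.186 and 0.184 on day 1 and 0.310, 0.173 and 0.185 on day 3, so day 3 replicate 1 stood apart, and the duplicate rate of day 3 replicate 3 was 0.367 against 0.142 to 0.234 in the other 5. The day 0 libraries of the batch had 0.392 to 0.496 of their reads in peaks. RNA libraries of days 1 and 3 held 19577588 to 23752481 counts. In RNA, RGC markers were abundant, with Rbpms at 368 to 431 CPM (counts scaled to a total of 1000000 per library) on day 1 and 248 to 261 on day 3, and the 16 rod and cone markers summed to 776 to 1181 CPM in these libraries.

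Between days 1 and 3 the accessible chromatin of these cells changed at many sites in both directions. Of 151622 peaks tested, 9046 rose (5.97%) and 6666 fell (4.4%), together 10.4% (edgeR quasi-likelihood test, Benjamini-Hochberg adjusted p under 0.05). The median change was 0.81 on the log2 scale (1.75-fold) among rising peaks and -0.80 among falling ones. A change of at least 2-fold was fitted for 2064 rising and 1053 falling peaks. The 3 libraries of day 3 all lay above those of day 1 at 15.2% of peaks and all below at 15.4%, and 8015 of the rising and 6342 of the falling peaks were among them. Rising peaks had median levels of 1.91 to 2.55 CPM over the day 0 libraries of the batch, 2.88 to 3.86 on day 1 and 4.89 to 6.43 on day 3. Falling peaks had medians of 2.61 to 3.31 CPM on day 0, 2.99 to 3.53 on day 1 and 1.72 to 1.94 on day 3. The day 1 level thus lay above that of day 0 for the typical rising peak, while for the typical falling one days 0 and 1 overlapped and day 3 lay below both.

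The number of calls rested on few libraries. No peak passed without day 1 replicate 2 (smallest adjusted p 0.0512, with 26884 peaks at an unadjusted p under 0.05), so each peak call below is lost without that library. There were 6965 calls without day 1 replicate 1, 4728 without day 3 replicate 2 and 7538 without day 3 replicate 3. Of the 72 called peaks among those named by rule, 55 passed in all 5 fits that left out one of the other libraries, and 26 passed when all 15 ATAC libraries were fitted with batch as a term (1789 calls in all). The balance of directions depends on the scaling: with total counts as the only scaling, 4614 peaks rose and 13759 fell, and the median over all peaks moved to -0.15.

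Rising peaks were found more in distal intergenic regions than elsewhere. Of 38547 distal peaks 7.84% rose and 5.11% fell, and they made up 33.4% of all rising peaks against 25.4% of peaks tested. Of 30150 promoter peaks within 1 kb of a start, 6.2% rose and 3.06% fell, with a median of 0.11. That direction at promoters was not stable, since 1393 rose and 1878 fell once a trend of the ratio with peak strength was removed from each library, and 1208 rose and 2404 fell with total counts as the only scaling. In introns rises and falls were of similar number, with 1051 and 959 of 21188 peaks in the first intron and 1975 and 1861 of 36833 in later introns. Exons outside UTRs had 380 rising and 421 falling of 7724 peaks. Of the 30325 peaks with the highest mean counts 11.5% rose and 3.78% fell, and of the 30325 with the lowest 1.6% and 2.35%. Distal peaks kept the excess of rises with the trend removed (2886 against 1475) and lost it with total counts only (1485 against 3596).

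**Figure D1:**
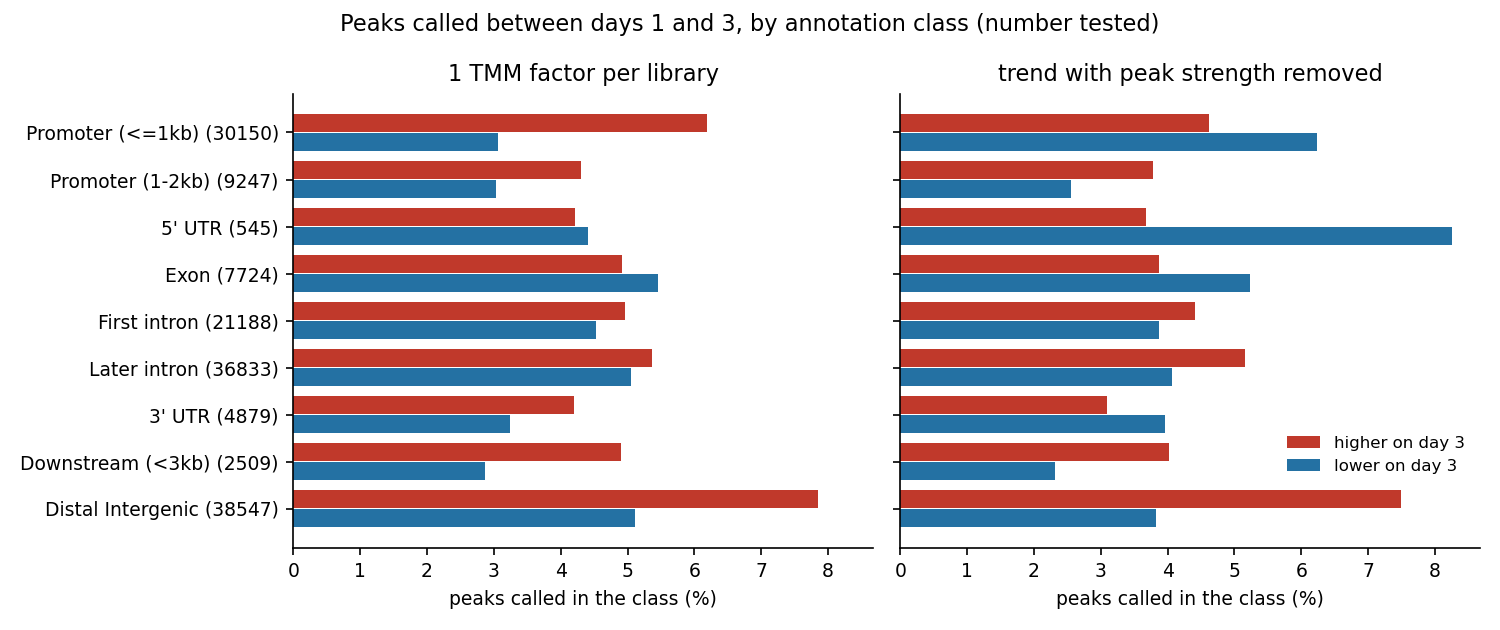
Share of peaks that rose (red) or fell (blue) from day 1 to day 3 in each annotation class, in percent of peaks tested (number in brackets), with a single TMM factor per library (left) and after removal of the trend with peak strength (right). Distal intergenic peaks show the largest share of rises in both panels, while the promoter class changes from more rises to more falls.

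The peaks with the largest changes were mostly small distal or intronic sites. The peak with the largest rise, 542 bases at chr5:101303319-101303860 near the pseudogene Cycs-ps2, had 0.646, 0.655 and 0.861 CPM on day 1 and 1.98, 2.90 and 3.49 CPM on day 3. It rose by 1.94 ± 0.25 on the log2 scale (standard error, n = 3 and 3, edgeR adjusted p = 0.00269). Its levels on day 0, 0.226 to 0.575 CPM, were lower still. A peak in an intron of Hdac9, a class II histone deacetylase, rose by 1.82 ± 0.33 (edgeR adjusted p = 0.00364), from 0.257 to 0.893 CPM on day 1 to 1.58 to 2.80 CPM on day 3, while its RNA fell by 0.85. Peaks near Prlhr (1.88) and Atg7 (1.72), an autophagy enzyme, and in the first intron of Cav3 (1.72), were among the 10 largest rises, and the 5 others lay near predicted genes or a pseudogene.

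The largest fall was at a 303-base intronic peak of Tmem132c, with 1.51, 1.40 and 1.14 CPM on day 1 and 0.431, 0.420 and 0.491 CPM on day 3, a change of -1.60 ± 0.28 (edgeR adjusted p = 0.00337). Day 3 lay below day 0 as well there (0.781 to 0.918 CPM). A peak in an intron of Ncam2, a neural cell adhesion molecule, fell by 1.51 ± 0.30 (edgeR adjusted p = 0.0053), and its RNA fell by 1.46 ± 0.11. An intronic peak of Fry fell by 1.55 and a distal one near Fut8, a fucosyltransferase, by 1.57. The fall at Gm43755 rested on a single library: day 1 replicate 1 had 5.85 CPM there and the other day 1 libraries 1.45 and 1.17, and without it the difference was -0.46 (edgeR adjusted p = 0.347).

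**Figure D2:**
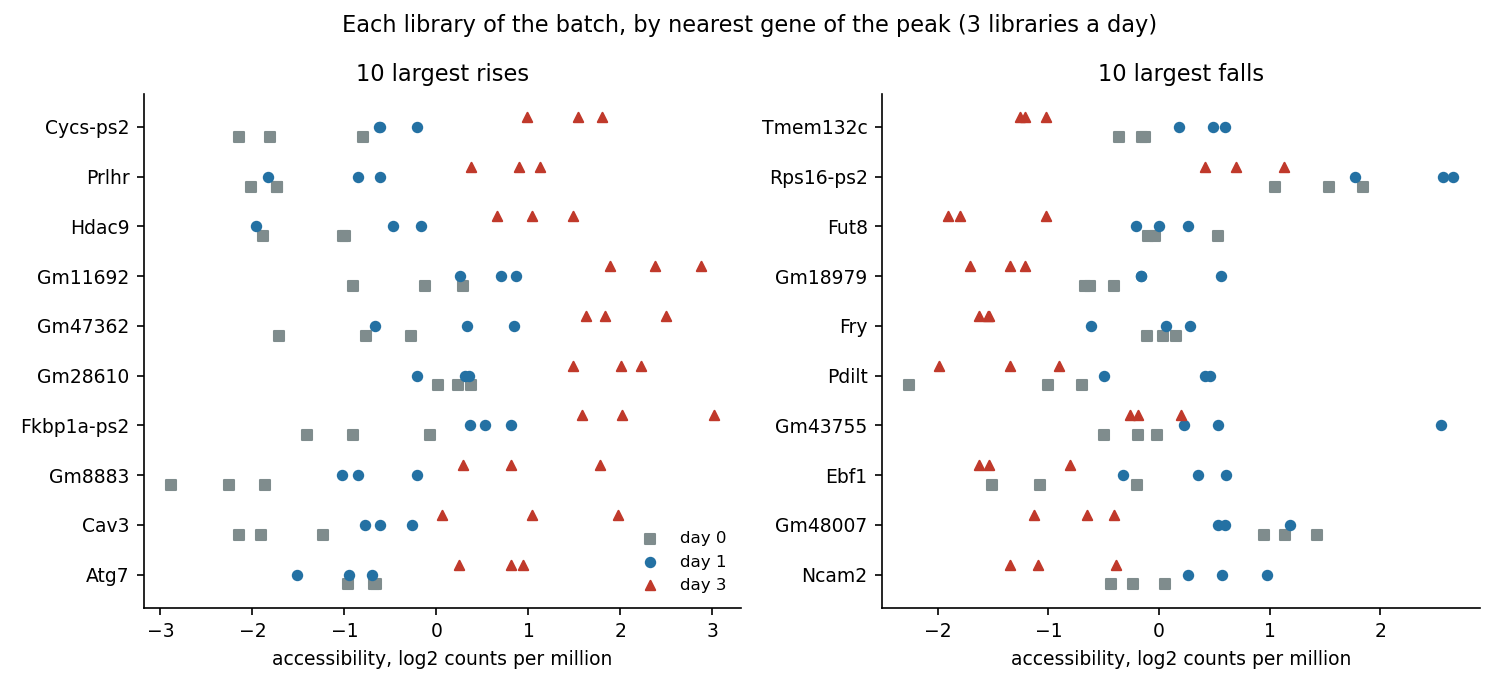
Accessibility of the peaks with the 10 largest rises (left) and the 10 largest falls (right) in each library of the batch, in log2 CPM, labelled by nearest gene. Triangles are day 3, circles day 1 and squares day 0, 3 libraries each; the circle far to the right at Gm43755 is day 1 replicate 1 (5.85 CPM).

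Interferon response genes had the largest share of rising peaks of the 17 gene lists. They are induced when type I or II interferon activates STAT and IRF factors. Of 41 peaks annotated to 14 of the 15 genes, 16 rose (39.0%) and none fell, against 5.97% and 4.4% of all peaks. The median difference was 0.56 against 0.01 over all peaks. Of 20 promoter peaks 12 rose, against 6.2% of all promoter peaks within 1 kb of a start and 4.3% of those at 1 to 2 kb. Genes of these families have near-identical copies, such as H2-K1 and H2-D1 or the Gbp genes, among which reads can be misplaced. The promoter peak of Ifit3 (chr19:34582226-34584461), an antiviral protein, had 5.02, 4.91 and 6.75 CPM on day 1 and 8.56, 13.8 and 12.2 CPM on day 3. It rose by 1.05 ± 0.19 (edgeR adjusted p = 0.00347), and day 0 (8.17 to 12.6 CPM) overlapped with day 3, not with day 1.

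The guanylate-binding proteins, interferon-induced GTPases, gave the same picture. The promoter peak of Gbp3 had 13.4, 10.9 and 17.0 CPM on day 1 and 22.2, 27.1 and 28.9 CPM on day 3, a rise of 0.93 ± 0.17 (edgeR adjusted p = 0.00374). That of Gbp6 rose by 0.95 ± 0.19 (edgeR adjusted p = 0.00543), from 7.02 to 12.7 CPM to 15.5 to 20.8 CPM. For both genes day 1 lay below day 0 and day 3 in all libraries. The promoter peaks of the list summed to 713, 753 and 743 CPM on day 0, 513, 411 and 519 on day 1, and 740, 742 and 712 on day 3. Day 1 thus had the low values, while days 0 and 3 overlapped. Other lists had low day 1 sums too, such as cell death genes with 1400 to 1480 CPM on day 0, 1065 to 1158 on day 1 and 1385 to 1676 on day 3, so this is not particular to interferon genes.

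RNA of the same genes moved the opposite way. All 15 genes fell from day 1 to day 3 (background 17.5% of 13737 genes lower and 16.1% higher), with a median of -5.62. Ifit3 had 318, 433 and 194 CPM on day 1 and 4.40, 4.15 and 5.80 CPM on day 3 (log2 difference -6.04 ± 0.96, edgeR adjusted p = 1.0e-04). The summed RNA of the list was 5475, 4014 and 3300 CPM on day 1 and 421, 375 and 371 CPM on day 3. Interferon-induced RNA was therefore high on the day with the lower accessibility at these promoters. RNA and ATAC libraries are separate samples in the labels. RNA day 1 replicate 1 also had the highest microglial sum (1097 CPM against 143 to 235 CPM in the other 5 libraries), and all 15 interferon genes remained lower without it, with a median of -5.33. The number of rising interferon peaks was 5 without ATAC day 1 replicate 1, 6 without day 3 replicate 2 and 8 in the 15 libraries with batch as a term, and the list's median was 0.40 to 0.67 over the alternative fits.

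**Figure D3:**
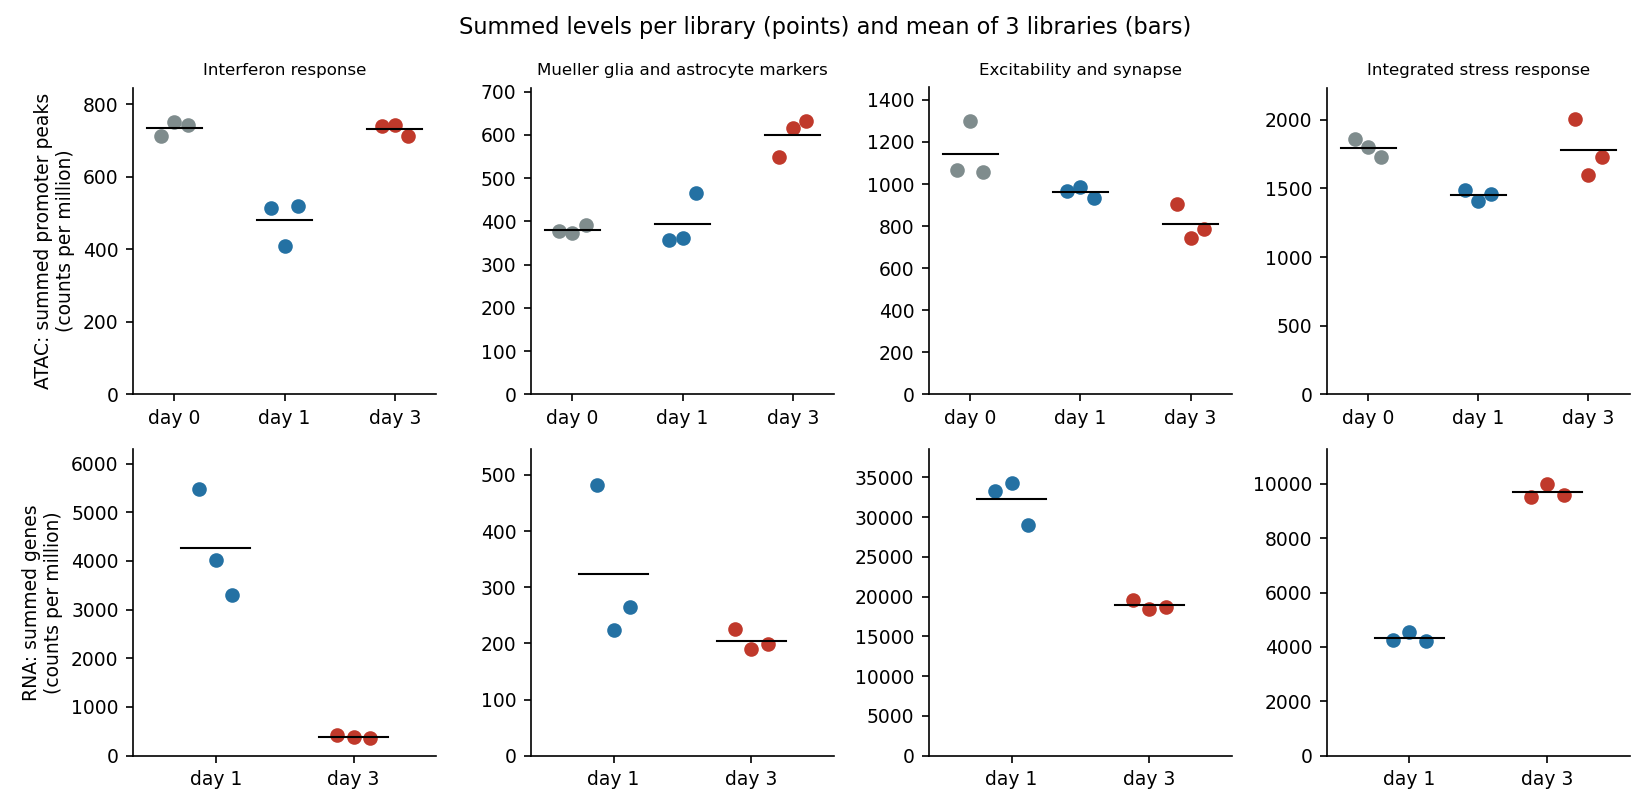
Summed promoter accessibility (upper row, CPM; days 0, 1 and 3) and summed RNA (lower row, CPM; days 1 and 3) of 4 gene lists in each library, with bars at the mean of 3 libraries. Interferon promoters are lowest on day 1 (411 to 519 CPM), when their RNA is highest (3300 to 5475 CPM), and synapse genes are lower on day 3 in both rows.

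Genes of the AP-1 family and other immediate early genes gained accessibility at a minority of peaks. Of 73 peaks 11 rose and 2 fell (15.1% and 2.74%, against 5.97% and 4.4% of all peaks), with a median of 0.09, which turned negative in 2 of the 17 alternative fits. The promoter peak of Fosl1, a FOS-family partner of JUN, had 16.2, 12.8 and 13.5 CPM on day 1 and 21.9, 22.0 and 31.7 CPM on day 3. It rose by 0.83 ± 0.17 (edgeR adjusted p = 0.00563), and Fosl1 had no RNA row among the genes tested. The peak over the Jun promoter had 192, 173 and 233 CPM on day 1 and 336, 302 and 309 CPM on day 3, a rise of 0.66 ± 0.17 (edgeR adjusted p = 0.0163), and it spans 11034 bases, so that other elements share it. It did not pass without day 1 replicate 1 (0.112) or day 3 replicate 3 (0.0641), nor with 15 libraries (0.104). Jun RNA did not pass the test between these days (459, 488 and 477 CPM against 423, 455 and 411 CPM). The single annotated peaks of Fosb, Jund, Ier2 and Mafk also rose, as did a distal peak of Arc (1.20 ± 0.24, edgeR adjusted p = 0.00621), whose RNA rose by 0.94. Both peaks of Egr4, a zinc-finger factor induced by activity, fell, the promoter peak by 0.71 ± 0.15 (edgeR adjusted p = 0.00841), which was lost without day 1 replicate 1 (0.0563), day 3 replicate 2 (0.0541) and with 15 libraries (0.0727). There were 3 rises without day 1 replicate 1, 4 without day 3 replicate 3 and 2 with 15 libraries, and 11 rises and 7 falls with total counts only.

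Stress and injury genes showed modest accessibility changes beside large RNA changes. In the integrated stress response, through which ATF4 and its partners adapt amino acid supply and translation, 15 of 135 peaks rose and 3 fell (11.1% and 2.22%, against 5.97% and 4.4% of all peaks; median 0.15). RNA of 31 of 35 genes rose and none fell (16.1% and 17.5% of all genes; median 1.30). With total counts only, 8 peaks rose and 7 fell. The promoter peak of Nupr1, a stress-induced chromatin protein (chr7:126629588-126630454), had 2.55, 1.78 and 3.75 CPM on day 1 and 4.85, 7.93 and 11.4 CPM on day 3. It rose by 1.59 ± 0.26 (edgeR adjusted p = 0.00281), a level also above day 0 (1.51 to 2.35 CPM), and 4 of its 5 peaks rose. Nupr1 RNA, 17.3 to 23.4 CPM on day 1 and 35.9 to 44.5 CPM on day 3, did not pass (edgeR adjusted p = 0.0518). Peaks near the amino acid carriers Slc3a2 (0.74 ± 0.16) and Slc7a1 (0.84 ± 0.19) rose together with RNA (1.58 and 1.16), the latter peak not without day 3 replicate 2 (edgeR adjusted p = 0.0617). Without day 1 replicate 1 there were 4 rises, without day 3 replicates 2 or 3 there were 4 and 5, and 10 without day 1 replicate 3.

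At the factors that lead this response few promoter peaks passed the test. Atf3 has 2 promoter peaks. The peak 747 bases from the start site (chr1:191216075-191217292) had 4.83, 3.13 and 4.27 CPM on day 1 and 5.82, 6.03 and 7.66 CPM on day 3, and rose by 0.68 ± 0.18 (edgeR adjusted p = 0.025). The smaller one over the start site had 1.60, 1.38 and 1.58 CPM on day 1 and 1.37, 1.95 and 2.06 CPM on day 3 (0.23 ± 0.22, edgeR adjusted p = 0.526), a range that overlaps, while Atf3 RNA rose by 3.30 ± 0.14. The promoter peak of Atf4 differed by 0.27 ± 0.16 (edgeR adjusted p = 0.275), and the 2 of Cebpg by 0.32 ± 0.15 and 0.41 ± 0.22 (edgeR adjusted p = 0.176 and 0.235). Ddit3 has no annotated peak; its promoter window lies in an 18033-base peak assigned to Mbd6, which differed by 0.27 ± 0.16 (edgeR adjusted p = 0.274). Ddit3 RNA rose by 0.94 and Atf4 RNA by 0.91.

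Of the axon injury and regeneration genes, 16 of 176 peaks rose (9.09%, against 5.97% of all peaks) and 2 fell (1.14% against 4.4%), with a median of 0.16. RNA of 17 of 29 genes rose and 4 fell (16.1% and 17.5% of all genes). The Sox11 promoter peak, of a factor that drives axon regrowth, had 16.5, 14.1 and 19.6 CPM on day 1 and 21.8, 22.2 and 30.7 CPM on day 3 and rose by 0.57 ± 0.17 (edgeR adjusted p = 0.0331), with Sox11 RNA up by 1.53. It did not pass without day 1 replicate 1, day 3 replicate 2 or day 3 replicate 3 (0.55, 0.65 and 0.39). A distal peak near Gal, a neuropeptide made by injured neurons, rose by 1.11 ± 0.21 (edgeR adjusted p = 0.00448) and its RNA by 0.80. In contrast, a distal peak of Sox4 rose by 1.35 ± 0.25 (edgeR adjusted p = 0.00433) while Sox4 RNA fell by 1.68, and one of Socs3, an inhibitor of cytokine signalling, rose by 0.83 while its RNA fell by 1.15. With total counts only there were 12 rises and 7 falls. The count of rises was 7 without day 1 replicate 1, 8 without day 3 replicate 2 and 8 without day 3 replicate 3.

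Cell death genes had 17 rising and 2 falling of 149 peaks (11.4% and 1.34%, against 5.97% and 4.4% of all peaks). The peak over the promoter of Mcl1, an inhibitor of apoptosis, had 162, 147 and 183 CPM on day 1 and 304, 274 and 295 CPM on day 3 and rose by 0.83 ± 0.16 (edgeR adjusted p = 0.00477), while Mcl1 RNA differed by 0.06. It covers 22228 bases and can hold other promoters. The Fas promoter peak had 8.22, 5.61 and 9.50 CPM on day 1 and 11.9, 15.9 and 18.2 CPM on day 3, a rise of 0.98 ± 0.19 (edgeR adjusted p = 0.00502). Fas had no RNA row among the genes tested. At the TNF receptor Tnfrsf1a 5 of 10 peaks rose. RNA of 7 of 22 genes rose and 2 fell (16.1% and 17.5% of all genes), or 8 and none without RNA day 1 replicate 1, and Cdkn1a, the p53 target and cell-cycle inhibitor, had the largest RNA rise (3.19). Among DLK and JNK signalling genes 17 of 197 peaks rose and 5 fell (8.63% and 2.54%), a balance that turned to 10 and 15 with total counts only; for cell death genes it was then 8 and 6. Of the 17 DLK and JNK rises, 6 lay at Dusp16, a JNK phosphatase whose RNA fell by 0.51 (edgeR adjusted p = 0.00367). Another 3 lay at Tnik, a kinase upstream of JNK. Its intronic peak with the smallest p rose by 0.95 ± 0.16 (edgeR adjusted p = 0.00328) with RNA up by 1.85. Cell death had 5 rises without day 1 replicate 1, 8 without day 3 replicate 2 and 8 without day 3 replicate 3. DLK and JNK signalling had 5, 9 and 6 in the same order.

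**Figure D4:**
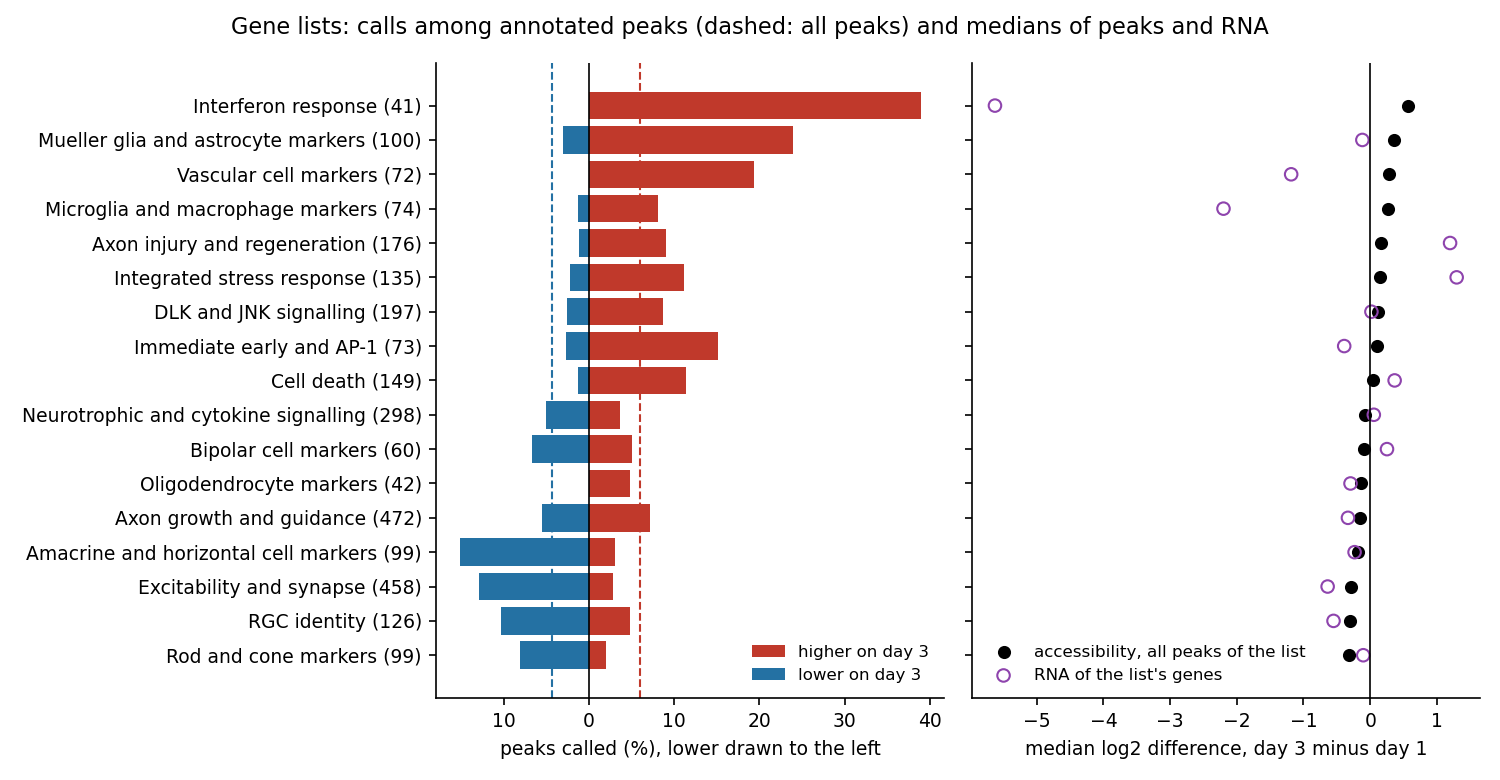
Gene lists (number of peaks in brackets): percent of peaks that rose (red) or fell (blue) with dashed lines at 5.97% and 4.4% for all peaks (left), and median log2 difference of accessibility and RNA (right). Interferon genes have the largest share of rises (39.0%) and the lowest RNA median (-5.62), and synapse genes (12.9%) and amacrine and horizontal cell markers (15.2%) the largest shares of falls.

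A minority of peaks at genes of neuronal excitability and the synapse fell, a larger share than of all peaks. Of 458 peaks 59 fell and 13 rose (12.9% and 2.84%, against 4.4% and 5.97% of all peaks), the median was -0.29, and 14 of 96 promoter peaks fell and 1 rose. RNA of 25 of 40 genes fell and 2 rose (17.5% and 16.1% of all genes). An intronic peak of Nrxn3, a presynaptic adhesion protein (chr12:88931606-88932296), had 2.28, 4.07 and 4.23 CPM on day 1 and 1.37, 1.26 and 1.47 CPM on day 3 and fell by 1.37 ± 0.24 (edgeR adjusted p = 0.00327), without a passing change in its RNA (-0.08). Peaks of the calcium channel subunits Cacna1a and Cacna2d3 fell by 0.97 ± 0.18 and 1.26 ± 0.23. At the potassium channel Kcnc1, 6 of 15 peaks fell and RNA fell by 0.94, and at the glutamate receptor Grin2a 5 of 16 fell and RNA fell by 1.67. The number of falls was 31 without day 1 replicate 1, 14 without day 3 replicate 2, 29 without day 3 replicate 3 and 7 in 15 libraries, and the median stayed between -0.45 and -0.21 over all alternatives.

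At RGC identity genes 13 of 126 peaks fell and 6 rose (10.3% and 4.76%, against 4.4% and 5.97% of all peaks), or 29 and 4 with total counts only, and 7 of the falls were at Ebf3 and 4 at Ebf1, factors of RGC development. The Ebf3 promoter peak at chr7:137226603-137227299 had 1.97, 2.01 and 1.58 CPM on day 1 and 0.863, 0.839 and 0.786 CPM on day 3, a fall of 1.16 ± 0.24 (edgeR adjusted p = 0.00627), while Ebf3 RNA differed by 0.18. At Ebf1 an intronic peak rose by 1.12 and another fell by 1.53. Promoter peaks of the RGC factors Pou4f1 (-0.04 ± 0.15, edgeR adjusted p = 0.869) and Pou4f2 (-0.37 ± 0.16, edgeR adjusted p = 0.125) did not pass, though the RNA of both fell, by 0.93 and 1.65. Rbpms, an RNA-binding protein that marks RGCs, has 7 promoter peaks, of which 2 rose. The strongest, over a start site (chr8:33927320-33932958), rose by 0.56 ± 0.15 (edgeR adjusted p = 0.0198; 0.0822 without day 1 replicate 1), while Rbpms RNA fell by 0.62. Falls in the list numbered 3 without day 3 replicate 2 and 2 in 15 libraries, and rises 2 and 3 without day 1 replicate 1 and day 3 replicate 2.

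Axon growth and guidance genes were mixed and near the shares of all peaks (5.97% and 4.4%), with 34 rising and 26 falling of 472 peaks (7.2% and 5.51%; median -0.16), or 15 and 66 with total counts only. Rises lay at Nrp1, a semaphorin receptor (5 of 15 peaks), and Ncam1, an adhesion molecule (5 of 45), and falls at Crmp1, a semaphorin signalling protein (5 of 20). The promoter peak of Efnb2, an ephrin ligand, had 4.89, 4.47 and 7.13 CPM on day 1 and 8.99, 13.8 and 11.7 CPM on day 3 and rose by 1.07 ± 0.19 (edgeR adjusted p = 0.00364), while Efnb2 RNA fell by 1.13. A peak of Tubb6, a beta-tubulin, rose by 1.06 and its RNA by 1.18. Among neurotrophic and cytokine signalling genes 11 of 298 peaks rose and 15 fell (3.69% and 5.03%), also near those of all peaks, or 7 and 32 with total counts only. The receptor Ntrk3 accounted for 6 falls among 32 peaks, the one with the smallest p -1.02 ± 0.20 (edgeR adjusted p = 0.0049), and its RNA fell by 1.20. At Fgfr1, a growth factor receptor, 3 of 6 peaks rose with RNA up by 2.38. Without day 3 replicate 2 there were 6 rises and 2 falls in the axon growth list and 5 and 4 in the neurotrophic list.

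Markers of some other retinal cell types moved too. In bulk libraries, a change in the share of another cell type and a change of the same site within RGCs cannot be told apart, nor can fewer cells of a type and less RNA per cell. Over all peaks 5.97% rose and 4.4% fell. Of 100 peaks of Mueller glia and astrocyte genes 24 rose and 3 fell (24.0% and 3.0%, median 0.35). Of 72 peaks of vascular genes 14 rose (19.4%) and none fell (median 0.29). Microglia genes had 6 rises and 1 fall of 74 peaks (8.11% and 1.35%). Oligodendrocyte genes had 2 rises of 42 peaks (4.76%), near the share of all peaks, or 1 rise and 3 falls with total counts only. The promoter peaks of the Mueller glia and astrocyte list summed to 356, 362 and 466 CPM on day 1 and 549, 616 and 631 CPM on day 3, against 373 to 391 CPM on day 0. An intronic peak of Aldh1l1, an astrocyte enzyme, had 5.51, 5.28 and 8.74 CPM on day 1 and 11.3, 16.2 and 19.6 CPM on day 3 and rose by 1.27 ± 0.21 (edgeR adjusted p = 0.00279), while its RNA fell from 1.19 to 3.05 CPM to 0.0419 to 0.668 CPM. In RNA, 1 of 13 glial genes rose, Rlbp1, a retinoid-binding protein of Mueller glia (3.59 to 5.13 CPM to 17.6 to 18.0 CPM), and 3 fell, and the list's sum was 224 to 482 CPM on day 1 and 189 to 226 CPM on day 3. Gfap had no RNA row among the genes tested. Of the vascular genes, 4 of 9 had a tested RNA row, with sums of 4.18 to 10.2 CPM, and Pecam1, Cdh5 and Cldn5 had none. The part of these cells in the changes at other lists was not tested. Microglial RNA fell for 12 of 15 genes (17.5% of all genes fell and 16.1% rose), and for 7 without RNA day 1 replicate 1. Without ATAC day 1 replicate 1 there were 13 glial, 3 vascular and 1 microglial rises, and without day 3 replicate 2 there were 13, 5 and 2. With all 15 libraries and a batch term there were 1, 2 and 0, and with total counts only 19, 6 and 1.

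Markers of rods and cones and of amacrine and horizontal cells had more falls than rises. Rod and cone genes had 8 falls and 2 rises of 99 peaks (8.08% and 2.02%, against 4.4% and 5.97% of all peaks; median -0.32), with promoter sums of 454, 601 and 420 CPM on day 1, 433, 346 and 359 on day 3 and 585 to 1186 on day 0. None of their 16 tested RNAs passed. Amacrine and horizontal cell genes had 15 falls and 3 rises of 99, and 8 of these falls were at Tfap2c, an AP-2 factor. An intronic peak of Onecut2, which RGCs express too, rose by 1.50 ± 0.20 (edgeR adjusted p = 0.00269) with RNA up by 0.58. Bipolar genes had 4 falls and 3 rises of 60 peaks (6.67% and 5.0%), near the shares of all peaks. Without day 3 replicate 2 the falls were 0 at rod and cone, 7 at amacrine and horizontal and 1 at bipolar genes, and with 15 libraries and a batch term none of these lists had a fall.

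Motif scores were read from the submitters' chromVAR table, where a z-score tells how far the reads in peaks holding a motif deviate in a library from matched background peaks. As deposited, 838 of 1312 motifs rose (63.9%) and 53 fell (4.04%), 67.9% in all (limma, Benjamini-Hochberg adjusted p under 0.05). The scores of whole libraries were shifted, however. The median over all motifs was -4.26, -5.57 and -6.23 in the day 1 libraries, 0.35, 0.06 and 0.01 on day 3 and 2.77 to 5.60 on day 0, a shift of 5.49 between days 1 and 3. With each library's median subtracted, 271 motifs rose (20.7%) and 238 fell (18.1%), 38.8% in all, and families are described on that centred scale. None of the centred calls passed without day 1 replicate 1, day 3 replicate 1, day 3 replicate 2 or day 3 replicate 3 (0 calls each, with 529, 607, 477 and 500 motifs at an unadjusted p under 0.05), and there were 280 without day 1 replicate 2 and 883 without day 1 replicate 3.

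AP-1 motifs had the largest centred rise. Of 23 motifs of JUN, FOS and BATF factors 19 rose and 1 fell, with a median difference of 35.1, which stayed between 26.7 and 40.1 on leaving out each library. Their median centred score was -30.4, -30.2 and -25.5 on day 0, 4.82, -20.2 and 4.37 on day 1 and 33.8, 22.4 and 36.3 on day 3. The score thus rose over the days in order, with day 1 replicate 2 closest to day 0. The JUND motif scored 5.61, -23.1 and 4.44 on day 1 and 40.8, 24.6 and 42.8 on day 3 (centred difference 40.4 ± 9.22, limma adjusted p = 0.025; as deposited 45.9 ± 9.15, adjusted p = 0.0065). Matrices of related factors share their letters and the human and mouse matrices of a factor can be identical, so members of a family are not independent. In RNA, Fosl2 rose by 1.23 and Fos fell by 0.90.

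Motifs of the interferon pathway rose as well. All 20 IRF motifs rose (median 16.4), as did 10 of 12 STAT motifs (10.7). The median centred IRF score was 7.52, 8.58 and 15.3 on day 0, -16.4, -19.2 and -9.83 on day 1 and 4.14, 2.06 and -1.22 on day 3, so that day 1 again had the low values. RNA of Irf1 and Irf7 fell by 4.05 and 5.84. ETS motifs (37 of 59 rose, median 8.55), SOX motifs (24 of 44, 6.64), NFKB motifs (13 of 14, 6.14) and SP motifs (8 of 11, 5.52) also rose from day 1 to day 3. Not all had their low values on day 1. The median centred SOX score was -5.81, -5.98 and -6.01 on day 0 and -1.45, -3.13 and 3.51 on day 1. For NFKB days 0 and 1 overlapped. Of 17 KLF motifs 5 rose and none fell (median 3.49). The Klf4 motif, of a zinc-finger factor that limits axon growth, had the largest difference of them (9.20 ± 1.06, limma adjusted p = 0.0202). Its centred scores were 3.66, 2.40 and 6.67 on day 0, -6.49, -8.97 and -6.75 on day 1 and 2.74, 1.56 and 1.10 on day 3.

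E-box and MEF2 motifs had the largest falls. Of 16 motifs of neural bHLH factors such as NEUROD and ATOH, 14 fell and none rose (median -18.2), and all 9 MEF2 motifs fell (median -14.0). The NEUROD1 matrix (listed as NDF1) had centred scores of 6.76, 23.4 and -7.23 on day 1, -23.0, -24.5 and -28.4 on day 3 and 17.5 to 22.5 on day 0 (centred difference -32.9 ± 7.54, limma adjusted p = 0.025). Day 1 replicate 2 lay nearest to day 0, as it did for AP-1. Other E-box factors, among them TAL1, Tcf12 and Myod1 (-29.4, -28.9 and -27.3), were also among the 10 largest falls. Their matrices share letters with those of the neural factors, so the scores cannot tell which E-box factors the fall concerns. Families of other neuronal factors were mixed. Of 19 LHX and ISL motifs 2 rose and none fell (median 10.4), and of 5 POU4 motifs 1 rose and none fell (2.72). These rises were no larger a share than among all motifs (20.7%). Of 23 other POU motifs 8 fell and 1 rose (-3.10), and of 4 EBF motifs 1 fell and none rose (-2.16). Neurod1 RNA fell by 0.70 and Neurod2 RNA by 1.11, while Mef2a and Mef2d RNA did not pass. NRF1 motifs, bound at promoters of mitochondrial genes, fell for both matrices (median -9.24). The 3 motifs of ATF4, ATF5 and DDIT3 had a median difference of 2.78 with no call, and 7 of 23 ATF and CREB motifs fell (median -2.31). Of 13 CEBP motifs 6 rose and 1 fell (median 7.46). OTX and CRX motifs (median -14.9, 5 motifs) and CTCF motifs (-8.25, 2 motifs) had no call.

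**Figure D5:**
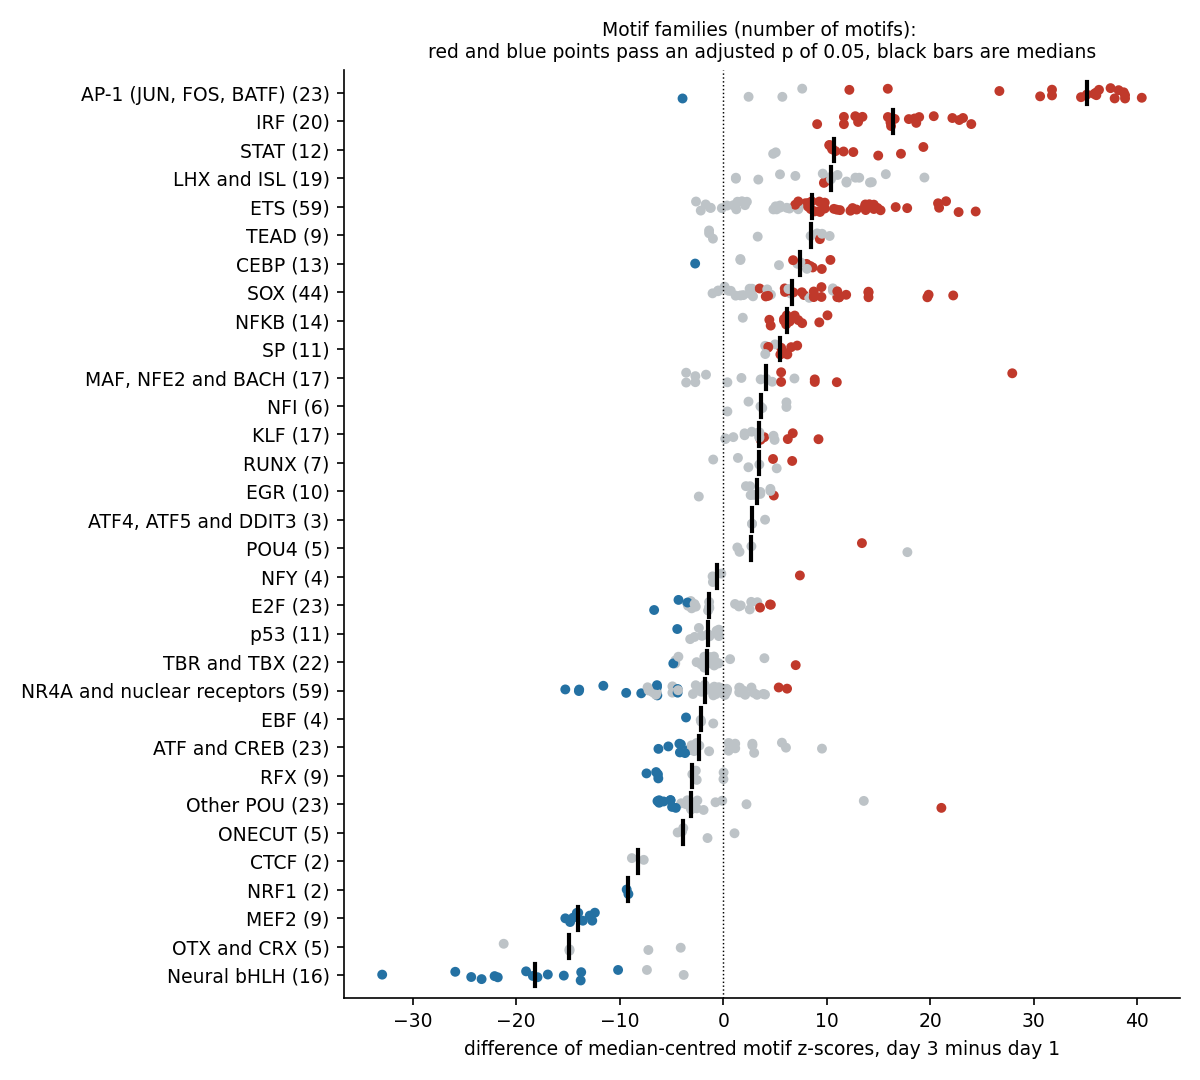
Difference of median-centred chromVAR z-scores, day 3 minus day 1, for each motif of 32 families (number of motifs in brackets), with black bars at the family median. Red and blue points pass the test; AP-1 lies highest (median 35.1) and neural bHLH lowest (-18.2).

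The submitters' footprint tables give, for sites of 4 factors, whether a site was called bound on each day with libraries pooled, so there is no replicate error. Their columns are headed nonTarget, a word that no sample title uses, so whether they hold the libraries compared here is not given. Among ATF3 sites in rising peaks (4404 sites) 65.2% were bound on day 1 and 94.6% on day 3. Those in falling peaks (332 sites) went from 81.3% to 55.7%, and those in other peaks (15479 sites) from 74.9% to 78.4%. ATF4 (59.4% to 91.5% of 1237 sites in rising peaks), CEBPG (61.3% to 92.1% of 1912) and DDIT3 (60.9% to 92.4% of 1262) moved in the same direction in rising peaks. For ATF3, sites in rising peaks were thus the least often called bound on day 1 and the most often on day 3. If they come from the same libraries, footprints and peak counts are not independent measures.

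Accessibility at a promoter and RNA of its gene were compared over all called promoter peaks within 1 kb of a start. Of the 603 falling promoter peaks whose gene has a tested RNA, RNA fell for 37.1% and rose for 10.3%. Of the 1033 rising ones, RNA fell for 25.3% and rose for 16.6%, and of 17637 uncalled ones for 19.6% and 17.0%. RNA thus fell in a larger share at falling promoters, and also at rising promoters, than at uncalled ones, and it rose about as often at rising as at uncalled promoters. These differences between shares were not tested. Genes are not independent replicates, and peaks of a gene share its RNA value.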

How the data were processed

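ATAC-seq libraries of sorted mouse RGCs from days 1 and 3 after optic nerve crush, 3 each and all of batch 2, were compared. The authors deposited raw counts per consensus peak, and the submitters' processing notes name Bowtie2, Picard, MACS2, bedtools, featureCounts, Subread and ChIPseeker for ATAC with builds GRCm38 and mm10, and STAR and HTSeq for RNA, without versions or roles. RNA values are deposited raw counts per gene. Motif values are chromVAR z-scores deposited per library, and footprint scores and bound calls were deposited per day. Shares of reads in peaks, of duplicates and of G and C bases are fractions, per the file headers. Batch-adjusted peak values were deposited on a log2 scale and served as an alternative; how they were adjusted is not given in the sources used here. Nearest genes and classes are those of the deposited annotation, with a submitters' symbol for 104532 peaks and a symbol matched from the reference gene table for most others, 151322 peaks in all; 267 peaks had none.

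Peaks passing filterByExpr (151622; 8 did not) were tested with edgeR 4.0.16 (TMM, quasi-likelihood, R 4.3.3) over the 6 libraries, and 13737 RNA genes likewise over 13 RNA libraries with day as the term. Motif z-scores were tested with limma 3.58.1. P-values were adjusted by Benjamini-Hochberg over each whole table, with a threshold of 0.05. A log2 value is day 3 minus day 1, its error is a standard error, and CPM are counts scaled to 1000000 in peaks (or genes) after TMM scaling. Totals of 20006724 to 38742127 counts per library limit weak peaks most. Scripts were tested on simulated data. Alternatives were DESeq2 1.42.0 (size factors and Wald test), total counts only, removal of a lowess trend (span 0.3), other filters, other sets of libraries, a replicate block and leaving out each library. Batch 1 has no day 1 library and entered only the fit of all 15 libraries.

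Peaks are named by rule: the 10 largest rises and falls among called peaks whose days did not overlap and whose mean count reached 20, the 3 peaks with the smallest p of each list, and the promoter peaks of 9 injury and RGC genes. Other list genes are named for their counts, after their values were seen. Motifs are named as the 10 largest changes each way and the smallest p per family. The comparison, the 17 gene lists and the 32 motif families were chosen with earlier results of these data known. Sample groups follow titles and column names, since the description field of some samples names a file of another library. Peak calls of single libraries were not used.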

Additional observations from a re-analysis of the deposited data

How the results depend on the processing

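All 15712 peaks called between days 1 and 3 kept their direction in each alternative but the deposited adjusted values (15709) and the filter on a mean count of 20, which tested 15607 of them with no change of direction. Their number was 1789 with all 15 libraries and a batch term, 24077 with a replicate block, 3117 with a change of at least 2-fold and 0 on the deposited adjusted values (33038 peaks at an unadjusted p under 0.05, smallest limma adjusted p 0.101). Leaving out each library gave 0 to 21244 calls, the 0 without day 1 replicate 2 (edgeR, 26884 at an unadjusted p under 0.05). Other scalings and filters and the DESeq2 Wald test gave 11329 to 18373. Whether replicate numbers pair the samples is not settled. Same-numbered libraries correlated at 0.082, 0.015 and 0.114 in their deviations from the day means, and differently numbered ones at -0.160 to 0.092. Day 1 replicate 2 correlated best with day 3 replicate 1. Called motifs were 891 as deposited and 509 after centring (limma), 0 to 883 on centred scores when each library was left out, and 446 on centred scores with the replicate block. Of the named motifs, COE1 (4.53 as deposited) and P63 (5.06) turned to -0.96 and -0.43 on the centred scale, which subtracts a shift of 5.49. RNA calls stayed between 3827 and 4989. Over the named peaks and their alternatives, 1087 values kept their call, 249 lost it and 7 gained one. By depth, of the 30325 peaks with the lowest mean counts 1.6% rose and 2.35% fell, and of the 30325 with the highest 11.5% and 3.78%; the median difference moved from -0.16 to 0.18 between them, and the cause was not tested.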

Other observations

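Genes with several called peaks were looked up after their values were seen, and the counts below carry no test. Of 34498 genes with an annotated peak, 10149 had at least 1 called peak, 1075 had calls in both directions, and 502 had 3 or more rising and 412 had 3 or more falling peaks. Trpm3, a cation channel gene, had the most rising peaks, 20 of 61 with none falling, while its RNA fell from 211 to 268 CPM on day 1 to 101 to 113 CPM on day 3. Tns3, a focal adhesion protein, had 16 rising of 52 peaks, and the integrin subunit Itga9 had 11 of 33. Flt1, a VEGF receptor of vascular cells, had 11 rising of 25 peaks, and its RNA was at 0.707 to 4.72 CPM on day 1 and 0.611 to 1.05 CPM on day 3. Notch1, a receptor of glia and progenitors, had 8 rising of 22 peaks and Plpp3, a lipid phosphatase, 8 of 21.

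Among genes with the most falling peaks, Rbfox3, the neuronal splicing factor known as NeuN, had 11 falling of 54 peaks and none rising, and its RNA fell by 1.05 on the log2 scale. The potassium channel gene Kcnj6 had 9 falling of 22 peaks and its RNA fell by 0.62. Osbp2, an oxysterol-binding protein, also had 9 falling of 17 peaks, but its RNA rose from 55.2 to 59.1 CPM on day 1 to 91.4 to 118 CPM on day 3. Zfp385b had 9 falling of 54 peaks with RNA up by 0.70. The direction of the peaks near a gene and of its RNA thus differed at Trpm3, Osbp2 and Zfp385b and was shared at Rbfox3 and Kcnj6. By the larger number of calls it also differed at Rgl1 (10 rising, 1 falling, RNA -1.11) and Sdk2 (8 rising, 4 falling, RNA -0.74). The same held at Megf11 (9 rising, 7 falling, RNA -0.37) and Rora (9 falling, 4 rising, RNA 0.22). RNA of these genes passed the test.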
